A study of Mus musculus with 6 samples.

Results

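Genes of the proteins that carry load across and out of the muscle fibre were examined, namely Des, Ttn, Itgb1 and Itgav. They were chosen by gene symbol in the platform's annotation, and each had 1 probe, so that 4 of the 223 probes in the table belong to them. The tissue was the soleus, a calf muscle rich in slow fibres that works against gravity, of 129/SV mice deficient in tenascin-C (Tnc), collected after 1 day of reloading, that is, of renewed weight bearing. All 6 arrays, 1 per animal and numbered 1 to 6 in the order of the sample records, carried this genotype and this treatment, in 1 group of biological replicates. Age, sex and the way in which the muscle had been unloaded are not stated in the labels, and wild-type, unloaded or ambulatory animals were not analysed here, so no effect of the deletion or of reloading was measured.

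In a muscle fibre, force generated in the sarcomere is held in place lengthwise and passed on sideways. Titin, a giant elastic protein, runs from the Z-disc to the middle of the sarcomere and keeps the myosin filaments centred. Desmin, the intermediate filament protein of muscle, ties neighbouring Z-discs to each other and to the cell membrane. At the membrane, integrins, which are pairs of an alpha and a beta subunit, link the cytoskeleton to laminin, fibronectin and other matrix proteins. Itgb1 encodes the beta subunit shared by most laminin-binding and fibronectin-binding integrins, and Itgav an alpha subunit that joins several beta subunits. Tenascin-C, which these animals lack per the labels, is itself a matrix ligand of some integrins, Itgav-containing ones among them.

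The sequence upstream of the annotated start of Des, Ttn and Itgb1 is shown because the probe sequences were not used here and the start region is where a fibre-restricted and a widely used gene of this set can be set side by side. The 170 bases are given 5′ to 3′ on the strand of the gene, from RefSeq for build GRCm38.p6. They lie at chr1:75360122-75360291 on the plus strand for Des, at chr2:76982548-76982717 on the minus strand for Ttn, and at chr8:128685484-128685653 on the plus strand for Itgb1. Capitals mark matches, on either strand, to 6 motifs. They are the E-box, spelled CANNTG, the TATAA motif, the GC box, which reads GGGCGG, the CCAAT box, and the MEF2 and CArG consensus sequences.
Des: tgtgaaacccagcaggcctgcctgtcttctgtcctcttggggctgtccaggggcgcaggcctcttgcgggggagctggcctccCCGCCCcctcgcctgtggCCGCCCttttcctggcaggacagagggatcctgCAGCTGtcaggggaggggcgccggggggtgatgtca
Ttn: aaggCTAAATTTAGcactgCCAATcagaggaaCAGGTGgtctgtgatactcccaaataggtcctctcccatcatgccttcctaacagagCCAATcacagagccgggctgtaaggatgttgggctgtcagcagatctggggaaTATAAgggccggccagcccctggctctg
Itgb1: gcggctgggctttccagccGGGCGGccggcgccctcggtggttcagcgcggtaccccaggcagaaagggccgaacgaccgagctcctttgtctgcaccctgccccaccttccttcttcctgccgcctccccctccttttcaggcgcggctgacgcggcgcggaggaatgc
The capitals in Ttn are, in order, a MEF2 match, a CCAAT box, an E-box, another CCAAT box and the TATAA motif, and no 2 of them overlap. In Des they are 2 GC boxes and an E-box, and in Itgb1 a single GC box. Over the 250 bases before the start, which were searched for all 4 genes, Des held a further E-box and Itgav held none of the 6 motifs. Among 32851 RefSeq start regions of that length, 66.2% held an E-box, 22.8% the TATAA motif, 32.7% a GC box, 33.8% a CCAAT box, 2.92% the MEF2 consensus and 1.47% a CArG box. A match describes the letters of the window and not a bound site. The G and C content of the 250 bases was 67.2% for Des, 68.0% for Itgb1, 64.4% for Itgav and 50.0% for Ttn, against a median of 52.4% over all regions.

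Signals are intensities relative to the summed signal of the array, and each was read against the lowest intensity of its own array, which stands in for background. The arrays differed in the room they left above it. The unnamed probe 1M and the 28S ribosomal RNA probe 1O, which lie outside the scaling and were left out, together came to 40.5 to 41.3 on arrays 1 and 2, against 0.876 to 3.21 on the rest. The lowest intensity was 0.003 on arrays 1 and 2 and between 0.0006 and 0.0018 on the others, and 19 to 20 of 221 probes reached 2 times it on arrays 1 and 2, against 37 to 104 on arrays 3 to 6. Arrays 3 to 6 are therefore also given on their own; that split was made after the data were seen, and no test was run between the 2 sets. The Tnc probe gave 0.0122, 0.0135, 0.002, 0.0025, 0.0021 and 0.0013 on arrays 1 to 6. It is not known here whether it lies in the deleted part, so it checks nothing about the genotype. Of the muscle fibre markers, 6 were on the array (Myh7, Myh2, Myh1, Myh4, Mb and Car3). All 6 passed 2 times the lowest on every array from 3 to 6, where 13.6% of all 221 probes reached it. On arrays 1 and 2 Myh7 and Mb stood at 2.3 to 2.67 times, and Myh2, Myh1, Myh4 and Car3 at only 1.4 to 1.83 times.

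Desmin and titin gave the strongest signals of the set on arrays 4 to 6 and Des on array 3 as well, where Itgb1 came before Ttn, and Itgav stayed near the lowest intensity on every array. All 4 genes exceeded the lowest intensity on every array, as did 89.1% of the 221 probes. On each of arrays 3 to 6, Des, Ttn and Itgb1 came to at least 2 times that value, which 13.6% of all probes did, and Itgav did so on none of the 6 arrays. On all 6 arrays, 2.26% of probes reached it and none of the 4 genes did, Itgb1 coming closest with 5 arrays. Array 1 counted among those 5 by a narrow margin, at 2.03 times. The genes were chosen with these values known, so the counts describe them and carry no test.

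**Figure D1:**
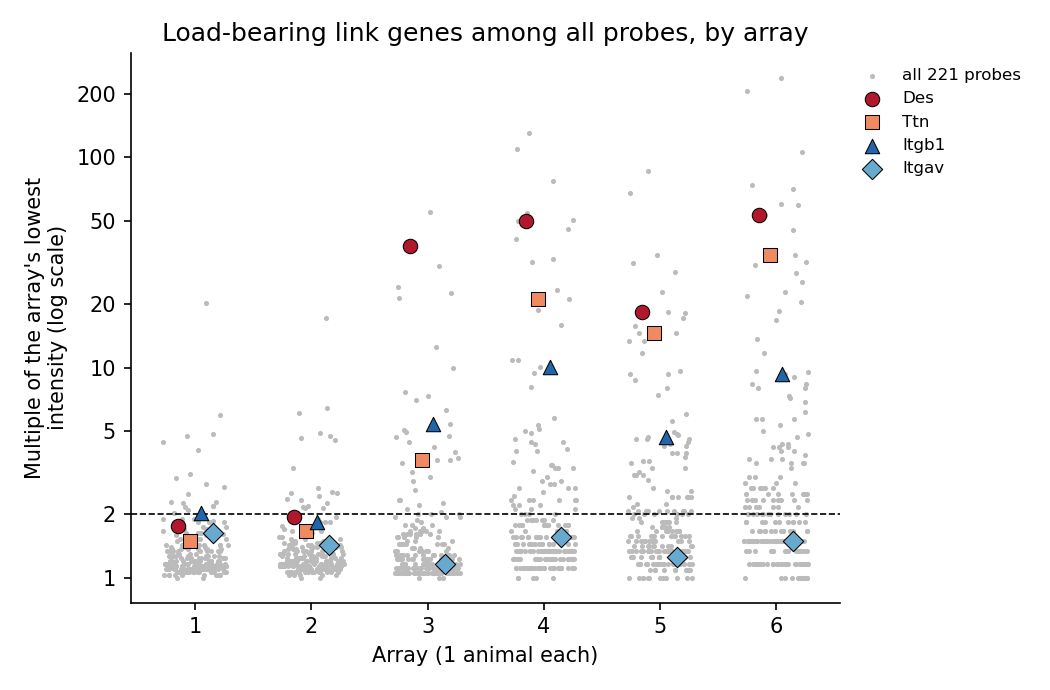
Multiple of the array's lowest intensity (log scale) for the 4 genes on each of 6 arrays, 1 animal per array, over all 221 probes (grey, spread sideways at random); the dashed line is 2 times the lowest. Des lies between 18.3 and 53.2 on arrays 3 to 6 and under 2 on arrays 1 and 2, while Itgav lies between 1.17 and 1.63 throughout.

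Des, the intermediate filament gene, gave intensities of 0.0053, 0.0058, 0.0682, 0.045, 0.022 and 0.0319 from array 1 to array 6. Relative to the lowest intensity of the array the values were 1.77, 1.93, 37.9, 50.0, 18.3 and 53.2. Arrays 1 and 2 were low and arrays 3 to 6 high, with no overlap. On arrays 3 to 6 the multiple was 39.8 ± 15.8 (SD, n = 4), and on the log2 scale over all arrays it was 3.76 ± 2.30 (SD, n = 6). Among the 221 probes Des had ranks of 29 and 21 in intensity on arrays 1 and 2, and of 2, 6, 7 and 8 on the others. Des was thus among the brightest 29 probes on every array.

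Ttn, the gene of the elastic filament, gave 0.0045, 0.005, 0.0065, 0.0191, 0.0176 and 0.0206, or 1.5, 1.67, 3.61, 21.2, 14.7 and 34.3 times the lowest intensity. Its array 3 stood apart from arrays 4 to 6 and lay closer to arrays 1 and 2, although it did not overlap them. On arrays 3 to 6 the multiple was 18.5 ± 12.8 (SD, n = 4), and the log2 multiple over all arrays was 2.76 ± 1.95 (SD, n = 6). Its ranks were 49, 30, 22, 12, 11 and 10 of 221 on arrays 1 to 6.

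Itgb1, the beta integrin subunit, gave 0.0061, 0.0055, 0.0097, 0.0091, 0.0056 and 0.0056. The intensity moved little, by 1.76-fold from the lowest to the highest array, and arrays 1 and 2 overlapped the other 4. Read against the lowest intensity it was 2.03, 1.83, 5.39, 10.1, 4.67 and 9.33, and on this scale arrays 1 and 2 lay below the others. The log2 multiple was 2.19 ± 1.05 (SD, n = 6), and the ranks ran from 13 to 27 of 221. The rank of Itgb1 had an SD of 5.24 over 6 arrays, against 10.5 for Des, 15.2 for Ttn and 49.3 for Itgav.

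Itgav, the alpha integrin subunit, gave 0.0049, 0.0043, 0.0021, 0.0014, 0.0015 and 0.0009, which was 1.63, 1.43, 1.17, 1.56, 1.25 and 1.5 times the lowest intensity. The arrays overlapped on this scale, and the log2 multiple was 0.50 ± 0.19 (SD, n = 6). In intensity arrays 3 to 6 lay below arrays 1 and 2, as the lowest intensity itself did. Over the lowest intensity, 1 unit in the last deposited decimal was 20% to 33.3% of the Itgav signal on arrays 3 to 6, so the values there are coarse. Its rank was 36 and 48 on arrays 1 and 2 and between 91 and 162 on arrays 3 to 6. In this whole-muscle RNA fewer cells that express a gene and less of its RNA per cell cannot be told apart.

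How far the arrays were parted depended on the scaling. Des and Ttn were higher on each of arrays 3 to 6 than on arrays 1 and 2 as deposited, as multiples of the lowest, after median-centring, after subtraction of the lowest and after quantile normalization, but not after cyclic loess, a fit that takes out any difference between arrays that follows the signal. The mean log2 difference between the sets was 4.32 for Des as a multiple of the lowest and 0.32 after cyclic loess. For Ttn it was 3.15 and −0.0015. Itgb1 was higher on arrays 3 to 6 as a multiple of the lowest, after median-centring and after subtraction, and overlapped in the other 3 scalings. Itgav went the opposite way, lower on each of arrays 3 to 6 in 5 of the 6 scalings, cyclic loess among them with a mean log2 difference of −0.45, and overlapping as a multiple of the lowest. As multiples of the lowest, 45.7% of all 221 probes were higher on arrays 3 to 6, like Des, Ttn and Itgb1, and 10.4% were lower. The order of Des, Ttn and Itgb1 is thus one that many probes share. No such share was counted in the 5 scalings that parted Itgav, so how common its order is among probes is not known here. Median log2 intensities of the arrays ran from −9.83 to −8.12.

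The share of the signal above the lowest intensity gives a view that needs no division by that lowest value. Des took 0.692% and 0.841% of it on arrays 1 and 2 and 11.1%, 5.52%, 2.84% and 3.61% on arrays 3 to 6. Ttn took 0.451% and 0.601%, then 0.783%, 2.28%, 2.24% and 2.31%. The last 3 shares of Ttn lie close together, and array 3 falls with arrays 1 and 2. Itgb1 took 0.577% to 1.32% on all 6 arrays, with arrays 1 and 2 inside the range of the rest. Itgav took 0.572% and 0.391% on arrays 1 and 2 and 0.0346% to 0.0625% on arrays 3 to 6, where its highest share lay below that of the other 3 genes on any array.

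**Figure D2:**
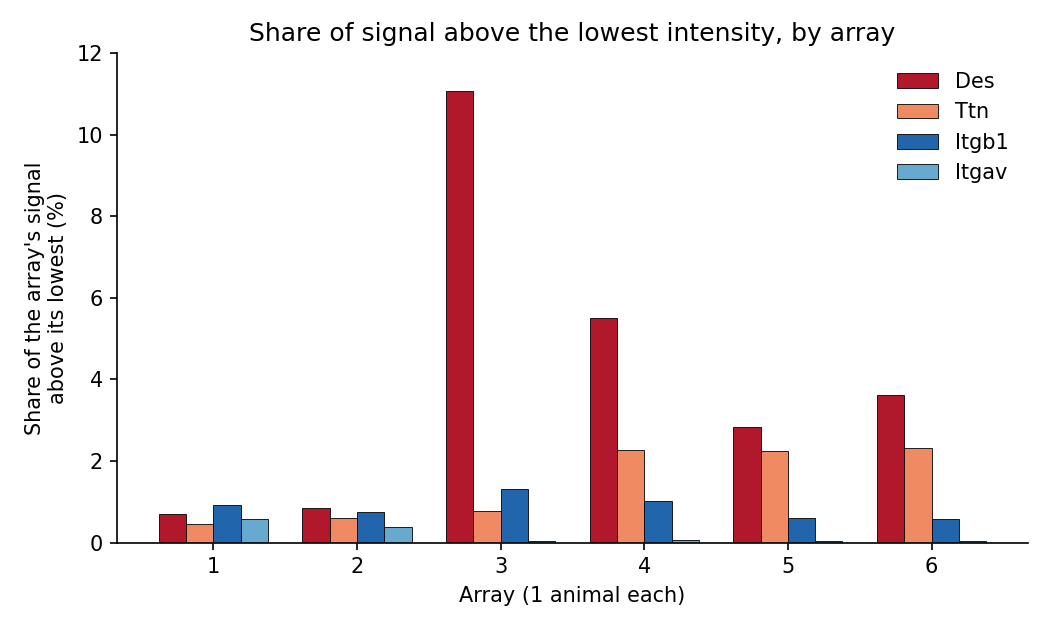
Share (%) of the summed signal above the array's lowest intensity that each of the 4 genes took, for 6 arrays of 1 animal each. Des takes 11.1% on array 3 against 2.84% to 5.52% on arrays 4 to 6, while Ttn takes 0.783% there against 2.24% to 2.31%.

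The sarcomere scaffold was then compared with the integrin subunits within each array, which cancels a common factor of the array but not its lowest intensity. Summed over the probes, that lowest value made up 66.6% of the signal on arrays 1 and 2. On arrays 3 to 6 it made up 13.3% to 39.9%, so ratios on arrays 1 and 2 had less room to depart from 1. The integrin spots also lay closer to 1M than those of Des and Ttn in an assumed layout, as given below. Probes differ in labelling and hybridisation, and their lengths are not stated in the labels, which makes a ratio between 2 of them one of signals and not of transcript amounts. The measurement is how the ratio differed between arrays, each from 1 animal. In all, 6 pairs were formed from the 4 probes. The log2 ratio of Des to Itgb1 was −0.20, 0.08, 2.81, 2.31, 1.97 and 2.51 on arrays 1 to 6. Des gave the higher signal on 5 of 6 arrays, and on arrays 3 to 6 the ratio was 2.4 ± 0.35 (SD, n = 4). Over all 6 it was 1.58 ± 1.30 (SD, n = 6). With the lowest intensity subtracted from both signals the ratio on arrays 3 to 6 was 2.60 ± 0.36 (SD, n = 4).

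Ttn and Itgb1 had no fixed order. Their log2 ratio was −0.44, −0.14, −0.58, 1.07, 1.65 and 1.88, so that Itgb1 was brighter on arrays 1 to 3 and Ttn on arrays 4 to 6. The mean of 0.57 ± 1.09 (SD, n = 6) was smaller than its SD, and it was 0.31 without array 6, 0.36 without array 5 and 0.12 after quantile normalization. Against Itgav both scaffold genes stood higher on arrays 3 to 6, but the size of the ratio depended on how the lowest intensity was treated, since Itgav lay so near it. The log2 ratio of Des to Itgav was 3.87 to 5.15 as deposited and 6.12 to 7.79 with the lowest subtracted. That of Ttn to Itgav was 1.63 to 4.52 and 3.97 to 6.06. Only the order of the signals is therefore read from these ratios. On arrays 1 and 2 they were 0.11 and 0.43 for Des and −0.12 and 0.22 for Ttn as deposited. Array 1 was the only 1 of the 6 on which Itgav was brighter than a scaffold gene.

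Within each of the classes the 2 genes also differed. Itgb1 was brighter than Itgav on 6 of 6 arrays. The log2 ratio was 0.32, 0.36, 2.21, 2.70, 1.90 and 2.64 from array 1 to array 6 as deposited, and 0.71, 0.94, 4.72, 4.04, 3.87 and 4.06 with the lowest subtracted, so here too only the order is read. Des was brighter than Ttn on 6 of 6 arrays as well, with 0.24, 0.21, 3.39, 1.24, 0.32 and 0.63. Array 3 stood apart in that ratio. The Des/Ttn mean was 1.01 ± 1.23 (SD, n = 6) with it and 0.53 ± 0.43 (SD, n = 5) without it. On array 3 Des was 10.5 times as bright as Ttn, against 1.16 to 2.36 times on the other 5 arrays.

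**Figure D3:**
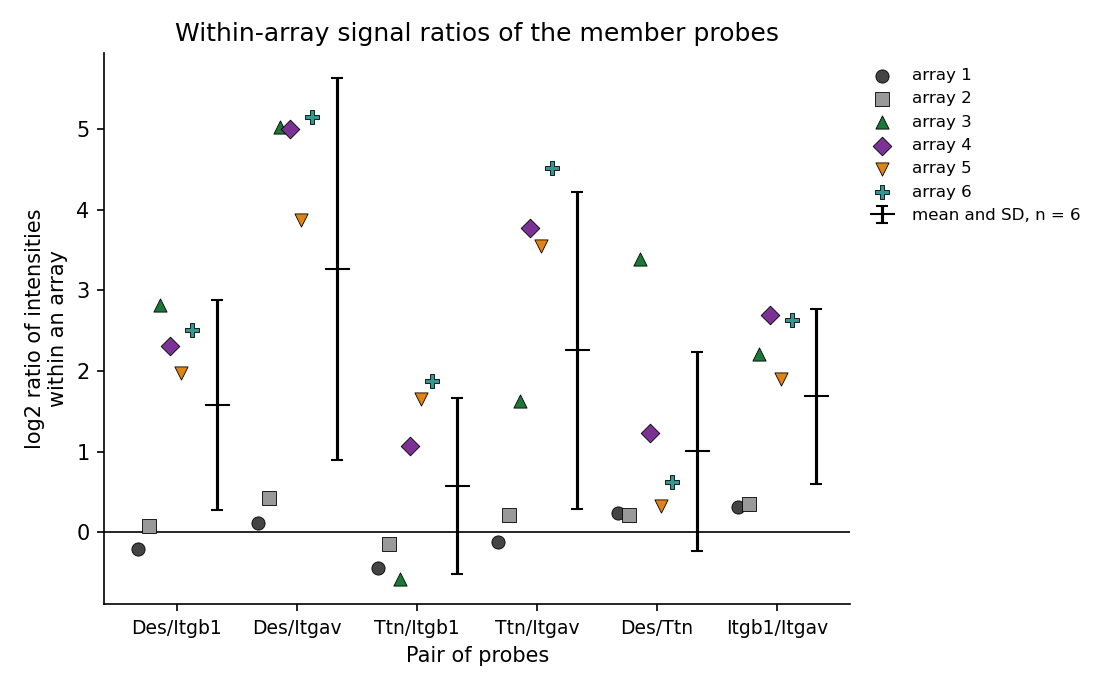
Log2 ratio of 2 probes' intensities within an array for 6 pairs, 1 symbol per array, with the mean and SD over 6 arrays at the right of each pair. Array 3 has the highest Des/Ttn ratio, 3.39, and the lowest Ttn/Itgb1 ratio, −0.58.

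The spread of the deposited ratios was set beside that of all pairs of the 197 probes above the lowest intensity of every array. On arrays 3 to 6, over 19900 pairs of the 200 probes measured there, the median SD of a log2 ratio was 0.43. Des/Itgb1 (0.35) and Itgb1/Itgav (0.38) lay below that median. Des/Itgav gave 0.60, Ttn/Itgb1 1.11, Ttn/Itgav 1.23 and Des/Ttn 1.38, and 97.2% of all pairs had a smaller SD than Des/Ttn. The 3 widest pairs on these arrays were the 3 that contain Ttn. With all 6 arrays the median was 0.55 over 19306 pairs, and all 6 pairs of these genes lay above it, between 1.09 for Itgb1/Itgav and 2.37 for Des/Itgav. Pairs share their probes and arrays, so these shares describe the genes and test nothing.

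The spread of each gene between arrays was tested with limma against probes of like signal. As deposited it holds differences between the arrays themselves as well as between animals. The SD of log2 intensity over 6 arrays was 1.54 for Des, 1.03 for Ttn, 0.96 for Itgav and 0.38 for Itgb1, beside a median of 0.83 over the 197 probes. Des had the 4th largest SD of the 197, and 6.60% of the probes had a smaller SD than Itgb1. None of the 4 genes passed as more variable than probes of like signal (limma adjusted p = 0.874 for Des, Ttn and Itgav and 0.998 for Itgb1). In that test 2.03% of the 197 probes passed, and 14 reached an unadjusted p under 0.05. Those that passed were Fgfr3, Tnc (limma adjusted p = 0.0076), Dgat1 and Top1. They stood at 3.1 to 4.9 times the lowest on arrays 1 and 2, and at 1.11 to 3.56 times on arrays 3 to 6. In the layout assumed from the probe identifiers their spots lie close together and near 1M. The part of spot position was not tested. A gene that did not pass is not thereby shown to be steady. Over the 17 settings in which they could be tested, the adjusted p of the 4 genes ran from 0.833 to 0.999. With each array centred on its median the SDs became 2.14 for Des, 1.72 for Ttn, 0.89 for Itgb1 and 0.31 for Itgav, beside a median of 0.29, so Itgb1 was among the steadiest probes as deposited and above the median once centred, and only the second of these scales removes the shift of the array medians.

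**Figure D4:**
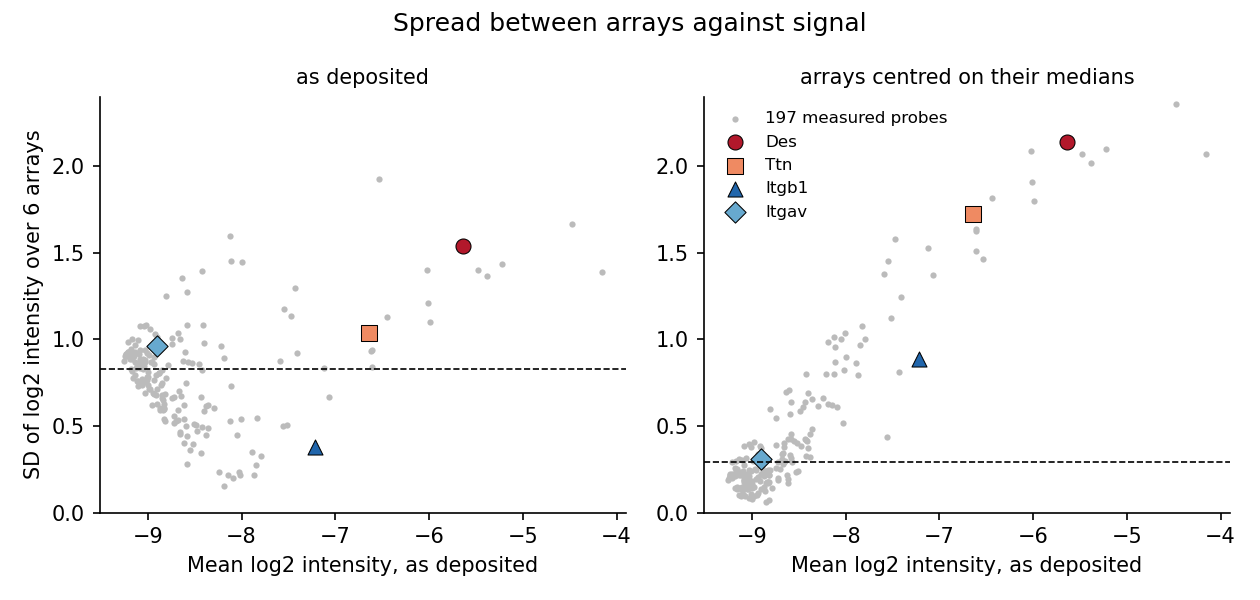
SD of log2 intensity over 6 arrays against mean log2 intensity for 197 probes (grey) and the 4 genes, as deposited (left) and with arrays centred on their medians (right); dashed lines are the medians, 0.83 and 0.29. Itgb1 moves from 0.38 to 0.89 between the panels and Itgav from 0.96 to 0.31.

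The probes whose profile over the arrays was most like that of each gene were taken as the 3 named ones with the smallest root mean square distance, in log2 units over 6 arrays, after centring each array on its median and each probe on its mean. The split between arrays 1 and 2 and the others dominates these profiles. For Des they were Mb (myoglobin, 0.47), Myh7 (the slow myosin heavy chain, 0.47) and Cox6a2 (a muscle subunit of cytochrome c oxidase, 0.49), against a median distance of 1.95 over 184 named probes. Mb stood at 2.5 and 2.53 times the lowest on arrays 1 and 2, and at 30.3, 50.3, 34.4 and 106 times on the remaining arrays. Without array 3 only 1 of the 3, Myh7, was still among the nearest, and on arrays 3 to 6 alone none was.

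For Ttn the nearest were Cox5b (another subunit of cytochrome c oxidase, 0.22), Myh4 (a fast myosin heavy chain, 0.40) and Ldhb (a lactate dehydrogenase subunit, 0.42), against a median of 1.58. Like Ttn, these 3 stood low on array 3, at 5.06, 3.72 and 4.67 times the lowest intensity, and at 8 to 30.8 times on arrays 4 to 6. Leaving out any 1 array kept 2 of the 3, and Cox5b was kept each time. For Itgb1 they were Fgfr2 (a fibroblast growth factor receptor, 0.24), Dmpk (a muscle protein kinase, 0.27) and Mef2c (a muscle transcription factor, 0.29), against 0.87, and without array 4 none of them was kept, and on arrays 3 to 6 only Mef2c was. For Itgav they were Fgfr4 (0.051), Angpt1 (0.066) and Lamb3 (0.094), a growth factor receptor, an angiopoietin and a laminin chain, against 0.38. None of the 3 exceeded 1.43 times the lowest on an array, so that likeness is one of probes near the lowest intensity; on arrays 3 to 6 none of them was kept. In the order of likeness to Des, Ttn was 15th and Itgb1 16th, and Itgav was 160th of 184.

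Other genes of the same structures were few on this array. Of 23 genes listed for the sarcomere scaffold and Z-disc only Des and Ttn were probed, and of 18 for focal adhesion signalling and 11 for the dystrophin complex none was. Of 21 integrin subunits 5 were probed. Itgb1 was the only 1 of the 5 at 2 times the lowest or more on every array from 3 to 6. Of all 221 probes 13.6% were, so a count of 1 in 5 sets the integrin probes little apart. Itga8, an alpha subunit that joins Itgb1, gave 1.20, 1.17, 2.89, 1.22, 1.83 and 1.67 times the lowest on arrays 1 to 6, so that only array 3 was high. Itgb5, a beta subunit that joins Itgav, ran from 1.2 to 2 times. Itga2, a collagen-binding alpha subunit, ran from 1.00 to 1.43 times and was at the lowest intensity on array 5.

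The matrix ligands of integrins were read against the same mark, 2 times the lowest intensity. Of 27 listed integrin ligands of the matrix, 13 genes were on the array with 14 probes. On every array from 3 to 6, 0 of these were at 2 times the lowest or more, beside 13.6% of all probes. On at least 1 array 9 of the 14 reached it, among them Lama3, a laminin chain, with 4.92 times on array 5. On array 6 alone 104 of all 221 probes reached it. The share of all probes that did so on any array, or on at least 4, was not counted. Tnc itself was the 1 ligand probe that reached 2 times the lowest on at least 4 of 6 arrays, namely arrays 1, 2, 4 and 6. On arrays 1 and 2 it stood at 4.07 and 4.5 times, with ranks of 6 and 7 of 221, above Des, Ttn, Itgb1 and Itgav. In a layout assumed from the probe identifiers, spots near that of Tnc were bright on these 2 arrays as well. Pole2 stood at 20.3 and 17.2 times, Top1 at 4.73 and 4.9 times and Dgat1 at 4.4 and 4.7 times. Their part in the Tnc signal was not tested. The median multiple over the 14 probes and 6 arrays was 1.47, it was 1.47 over the 5 integrin probes as well, and it was 11.7 over the 4 myosin heavy chains listed as contractile partners. All 4 of those, Myh7, Myh2, Myh1 and Myh4, were at 2 times the lowest or more on at least 4 of 6 arrays. On array 3 Myh4 was at 3.72 and Myh2 at 7 times, and Myh7 at 22.7 times.

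Other cells of the muscle also express integrins, and their markers were read in the same way. The 1 fibroblast marker on the array, Pdgfra, gave 1.33 to 2.11 times the lowest intensity. The 5 endothelial markers summed to 6.61 to 8.11 times on arrays 1 to 4 and to 13.4 and 14.7 times on arrays 5 and 6. No multiple is under 1, so such a sum over 5 probes cannot fall below 5. On every array from 3 to 6, 0 of 5 stood at 2 times the lowest or more, beside 13.6% of all probes. The highest of them were Cdh5, at 5.33 times on array 6, and Pecam1, at 4.58 times on array 5. Fabp4, the 1 adipocyte marker, was above 2 times on arrays 3 to 6, with 2.11, 4.33, 7.42 and 8.33, the third of these above Itgb1 on the same array (4.67). Leukocyte markers of the list were not on the array. As a multiple of the lowest, Itgb1 was highest on arrays 4 (10.1) and 6 (9.33). The endothelial sums there were 8.11 and 14.7, which cover 5 probes and are not on the scale of the 1 Itgb1 probe. The part of other cells in the Itgb1 signal was not tested. In the layout read from the probe identifiers, which is an assumption, the spots of Des and Ttn both touch that of Gapdh at a corner, which stood at 2.97, 4.63, 24.1, 131, 86.1 and 208 times the lowest from array 1 to array 6, and the spots of Itgb1 and Itgav lie side by side. Gapdh was brighter than Des on 5 of 6 arrays and dimmer on array 3. On arrays 1 and 2 the spots touching that of Itgb1 stood at 1.43 to 2.37 times the lowest, beside 2.03 and 1.83 for Itgb1. On arrays 3 to 6 they stood at 1.08 to 2.5 times, beside 4.67 to 10.1 for Itgb1. Of those touching Itgav, Nos3, Pdgfa, Itga2 and Mmp3 had lower multiples on each of arrays 3 to 6 than on arrays 1 and 2. Ang2, Efnb1, Pdgfb and Itgb1 did not. In the same layout the left-out probe 1M lay 5.83 grid steps from Itgb1 and 6.71 from Itgav, but 17 from Des and 19 from Ttn. It stood at 12194 and 11904 times the lowest on arrays 1 and 2, and at 317 to 3385 times on the rest. On array 1, Itga2, Itgav, Itgb1, Lama5, Lamb1 and Tnc, in order toward its column, stood at 1.43, 1.63, 2.03, 2.2, 2.7 and 4.07 times. The part of 1M and of neighbouring spots in these signals was not tested.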

How the data were processed

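Total RNA from cryosections of the soleus belly was reverse transcribed with primers for the probed genes and a radioactive nucleotide, and 1 labelled target was hybridised per array, per the labels' protocols. The authors deposited 1 linear intensity per probe and array; without probes 1M and 1O each array sums to 0.995 to 0.999, so the intensities are relative to that sum, as read from the values. Image analysis and background treatment are not given in the sources used here. Of 223 probes 205 were named by the platform annotation, and 204 of their identifiers matched a mouse gene table of GRCm38.p6.

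Intensities were divided by the array's lowest or taken as log2. Spread was tested with limma 3.58.1 in R 4.3.3 (squeezeVar, robust prior following the mean, upper-tail F test, Benjamini-Hochberg at 0.05) over the 197 probes above the lowest on all 6 arrays. In a check on simulated data the test missed many of the probes whose spread had been raised. Levels and ratios are described without a test. The number of arrays limits the precision. The genes named are the 4 chosen, Tnc, the 3 nearest profiles of each and list members at 2 times the lowest on at least 4 arrays; other names were chosen after their values were seen. The members and lists were chosen with earlier results of these data known. Scalings, background, filters, prior, a pseudocount of 0.0006, the reference level and each array were changed in turn.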

Additional observations from a re-analysis of the deposited data

Results flagged for a closer look

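The Des/Ttn ratio of array 3 stood apart from the other 5 arrays. Its log2 value was 3.39, and the gap to the next array, 1.24 on array 4, made up 0.678 of the range over 6 arrays, above Dixon's critical value of 0.625. Of 14 sets of 6 values examined this was the only 1 so marked; chance marks about 1 in 20. On that array Des was 37.9 and Ttn 3.61 times the lowest intensity, and neither gene's own values were marked.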

How the results depend on the processing

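The order of the 2 signals in the 6-array mean of each of the 6 pairs held under subtraction of the lowest intensity, quantile normalization, cyclic loess, a pseudocount, arrays 3 to 6 alone and leaving out each array. For Ttn/Itgb1 this says little, as 3 arrays went each way and the mean of 0.57 was smaller than its SD of 1.09. None of the 4 genes passed the limma variance test in any of 17 settings; a floor 2 times as high left none of them to test. The count of passing probes did change. It was 4 of 197, and it was 1 after median-centring, 1 after cyclic loess, 0 after quantile normalization (5 with an unadjusted p under 0.05), 0 as log2 multiples of the lowest (6), 0 after subtraction of the lowest (5), 0 with a plain prior (7), 0 of 5 probes with the floor 2 times as high (0), and 0 on arrays 3 to 6 after median-centring (13), a setting added after seeing the data. Leaving out 1 array gave 0 to 6: 0 without array 1, 2 or 6 (10, 11 and 9 with an unadjusted p under 0.05), 1 without array 3 and 6 without array 4. The cause was not tested. The mean log2 multiple of Itgav was 0.50 over the lowest intensity and 0.018 over the array median, a higher reference by construction. No paired analysis was possible because all arrays form 1 group. Signal over background limits arrays 1 and 2 most.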
